A study of Mus musculus with 12 samples.

Results

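The Bcl2 family genes described here are 10 genes that set the threshold of mitochondrial cell death, namely the guardians Bcl2l1, Bcl2 and Mcl1, the effectors Bax and Bak1, and the BH3-only genes Bmf, Bcl2l11, Bbc3, Pmaip1 and Bid. They were taken by gene symbol, with earlier results of these data known, and each was found once in each of the 3 comparison tables, among 21893 genes listed at 4 h, 21923 at 24 h and 23248 at 3 d, or 24351 genes listed in any table. All 10 had an adjusted p-value in all 3 tables. The libraries were made from macrophages grown from bone marrow of wild-type C57BL/6 male mice aged 8 to 16 weeks, cultured over 7 days with 10% serum and the growth factor M-CSF at 10 ng/mL. Of 12 libraries, 3 came from untreated controls, 3 from cells after 4 h of monophosphoryl lipid A (MPLA), 3 from cells after 24 h of MPLA, and 3 from cells taken 3 days after priming had ended. Monophosphoryl lipid A is a low-toxicity derivative of bacterial lipid A that acts through Toll-like receptor 4. M-CSF, a survival factor of macrophages, stayed in the medium of every group throughout. The protocol also names MyD88-/- and TRIF-/- mice, but no label assigns them a library. The length of priming in the last group, the harvest time of the controls and the number of mice behind a group are not stated, so a p-value here reflects only library-to-library spread, which could be technical.

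Proteins of the Bcl2 family decide whether the outer mitochondrial membrane stays closed. The effectors Bax and Bak can open pores in it and release cytochrome c, which starts the caspase cascade through Apaf1. Guardians such as Bcl-xL (the product of Bcl2l1), Bcl-2 and Mcl-1 bind and hold back the effectors, while the BH3-only proteins Bim (Bcl2l11), Puma (Bbc3), Noxa (Pmaip1), Bmf and Bid respond to stress, loss of growth factors or death receptors and oppose the guardians or activate the effectors. Macrophages depend on M-CSF for survival, and much of the family is also regulated at the level of the protein, by turnover, cleavage or tethering, which messenger RNA does not show.

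Fold changes are given as MPLA over control. They were read from the authors' deposited tables, in their DESeq2 form where edgeR is not mentioned, and a gene was called higher or lower at a DESeq2 adjusted p under 0.05. The tables give 1 value per gene and comparison and none per library, so no value per library can be shown. Errors are standard errors of the log2 change that the deposited p-value implies if it came from a Wald test, which is not stated. The 3 tables share the same controls and were normalized separately, so values at different times are set side by side with no test of their difference. Depth per library is unknown. The difference between unscaled and edgeR ratios implied 0.859 times the depth of the controls at 4 h, 0.934 times at 24 h and 2.32 times at 3 d. Over all tested genes the median log2 change stood at -0.04, -0.05 and -0.02 with DESeq2 and -0.97, -0.46 and -0.15 with edgeR, in the same order, so the direction of a weakly changed gene depends on the scaling. Of 9 macrophage marker symbols, 8 were listed in each table, all with reads in both groups (the absent Emr1 is the older symbol of Adgre1). Of these 8, 6 rose and 1 fell at 4 h, 4 rose and 4 fell at 24 h, and 5 rose and 3 fell at 3 d, with Csf1r, the M-CSF receptor, at -1.01, -1.52 and -0.54 in the authors' deposited tables. Of 25 markers of neutrophils, B cells, T cells, mast cells, fibroblasts and dendritic cells, 13 were tested at 4 h (4 higher and 1 lower), 10 at 24 h (3 and 4) and 9 at 3 d (4 and 0). Among them Ly6g, Cd8a and Mcpt4 were listed in none of the tables. Markers of 1 cell type did not always move together. Of the fibroblast markers Dcn was called higher at each time and listed at 0 in the controls. Pdgfra was also called higher at 4 h (4.34) and listed at 0 in the controls, was not tested at 24 h and was not listed at 3 d. Col1a1 (-0.19, -1.90 and 0.70) and Col1a2 (-1.75, -1.88 and 0.00080) were not called with DESeq2. With edgeR Col1a2 was called lower at 4 h and both were called lower at 24 h in the authors' deposited tables. Of the neutrophil markers Camp was called higher at 24 h (3.49) and 3 d (1.43), while Elane, Cxcr2 and Ngp were not tested at any time and were listed at 0 after 24 h of MPLA. Of the dendritic cell markers Xcr1 was higher at 4 h (3.93) and 24 h (3.08), while Zbtb46 was higher at 4 h (1.19) and lower at 24 h (-1.50). Neither was called at 3 d, and Flt3 was not called at 4 h and not tested later. Cd4 was lower at 4 h (-0.91) and 24 h (-1.35) and higher at 3 d (1.01) in the authors' deposited tables. Of the mast cell markers only Cpa3 was listed. It was lower at 24 h (-3.97), where it was listed at 0 after MPLA, and was not called at 4 h or 3 d with DESeq2. With edgeR Cpa3 was also called lower at 4 h (-2.15). Of the B cell markers only Cd79b was called with DESeq2, lower at 24 h (-1.54) and higher at 3 d (0.47). The part of such cells in the results below was not tested, and in bulk RNA fewer cells of a type and less RNA per cell cannot be told apart.

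The upstream sequences of 4 members are shown. Bmf and Bcl2l1 had the lowest and the highest change of the family at every time, and Bcl2l11 and Mcl1, which lay between them, are a BH3-only gene and a guardian with a match to a motif searched in the window shown. Each is the 250 bases before a RefSeq transcription start, in GRCm38.p6, read 5′ to 3′ on the gene's strand. Bmf lies at chr2:118549687-118549936 on the minus strand, Bcl2l1 at chr2:152831729-152831978 on the minus strand, Bcl2l11 at chr2:128125788-128126037 on the plus strand and Mcl1 at chr3:95658471-95658720 on the plus strand. Capitals mark matches to a FOXO core (GTAAACA) or a loose pattern, called the NF-kappaB motif here, on either strand. That pattern is a run of G, then T, then C, with positions open to any base on each side of the T. Whether a match meets a stricter form of the motif was not tested.
Bmf: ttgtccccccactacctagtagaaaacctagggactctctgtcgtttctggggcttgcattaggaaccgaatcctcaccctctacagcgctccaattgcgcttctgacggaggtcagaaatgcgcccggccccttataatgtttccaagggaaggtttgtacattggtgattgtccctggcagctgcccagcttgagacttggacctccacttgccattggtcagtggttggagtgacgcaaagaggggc
Bcl2l1: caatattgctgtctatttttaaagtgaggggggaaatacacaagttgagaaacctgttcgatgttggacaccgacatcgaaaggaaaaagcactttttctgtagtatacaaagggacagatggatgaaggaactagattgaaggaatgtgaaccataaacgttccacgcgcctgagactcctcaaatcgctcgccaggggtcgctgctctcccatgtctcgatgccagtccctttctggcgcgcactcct
Bcl2l11: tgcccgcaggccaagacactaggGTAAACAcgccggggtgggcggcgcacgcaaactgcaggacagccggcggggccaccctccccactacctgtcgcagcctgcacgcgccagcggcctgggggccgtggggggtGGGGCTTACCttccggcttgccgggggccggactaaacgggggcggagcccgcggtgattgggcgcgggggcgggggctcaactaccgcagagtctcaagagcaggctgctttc
Mcl1: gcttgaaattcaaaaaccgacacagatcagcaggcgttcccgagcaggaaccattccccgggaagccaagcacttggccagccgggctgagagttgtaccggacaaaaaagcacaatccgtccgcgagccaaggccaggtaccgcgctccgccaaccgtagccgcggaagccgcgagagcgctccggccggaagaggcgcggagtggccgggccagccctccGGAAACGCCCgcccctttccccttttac
The Bcl2l11 window held 1 match to each of the 2 motifs, which did not overlap, and the Mcl1 window held 1 NF-kappaB match on the reverse strand. The Bmf and Bcl2l1 windows shown held no match to either motif as searched. Over the 16 upstream windows of the 9 members found in the RefSeq table, 2 held the FOXO core and 4 the NF-kappaB motif, against 3.17% and 4.11% of 32851 windows of that length from all genes. Base composition differed, since the median window of all genes was 52.4% G and C, against 72.0% in the Bcl2l11 window shown, 64.4% in that of Mcl1, 54.0% in that of Bmf and 47.6% in that of Bcl2l1, and its part in the matches was not tested. The other members with the FOXO core or the NF-kappaB motif were Bbc3, with both in different windows, and Bcl2l1, with an NF-kappaB match at an inner start. An E-box (CACGTG) was found in 2 member windows, of Bax and Bbc3, against 6.02% of all windows, while an AP-1 motif (TGANTCA) and an interferon-sensitive motif were found in 0 of them, against 6.75% and 2.98% of all windows.

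After 4 h of MPLA the family split. Bcl2l1, Bak1, Bid and Mcl1 were higher than in the controls, Bmf, Bcl2, Pmaip1 and Bbc3 were lower, and Bax and Bcl2l11 passed no test with DESeq2. The counts were 4 higher and 4 lower of 10 members, where 31.8% and 31.0% of the 17523 tested genes were called higher and lower and 62.9% in either direction. With the edgeR columns 3 members were higher and 7 lower, where 13.5% and 50.1% of 21893 genes were. After 24 h the count was 5 higher and 4 lower, against 32.4% and 32.2% of 16442 tested genes and 64.6% in either direction (edgeR 4 higher and 5 lower, against 16.2% and 41.8% of 21923). At 3 d it was again 5 higher and 4 lower, against 29.5% and 25.8% of 15111 and 55.2% in either direction (edgeR 5 and 5, against 15.5% and 27.7% of 23248). Calls are thus common in every table, and the members are described by size and direction rather than by their count. At least 2-fold and called were 6 members at 4 h, 6 at 24 h and 3 at 3 d, against 36.6%, 29.2% and 11.6% of all tested genes.

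**Figure D1:**
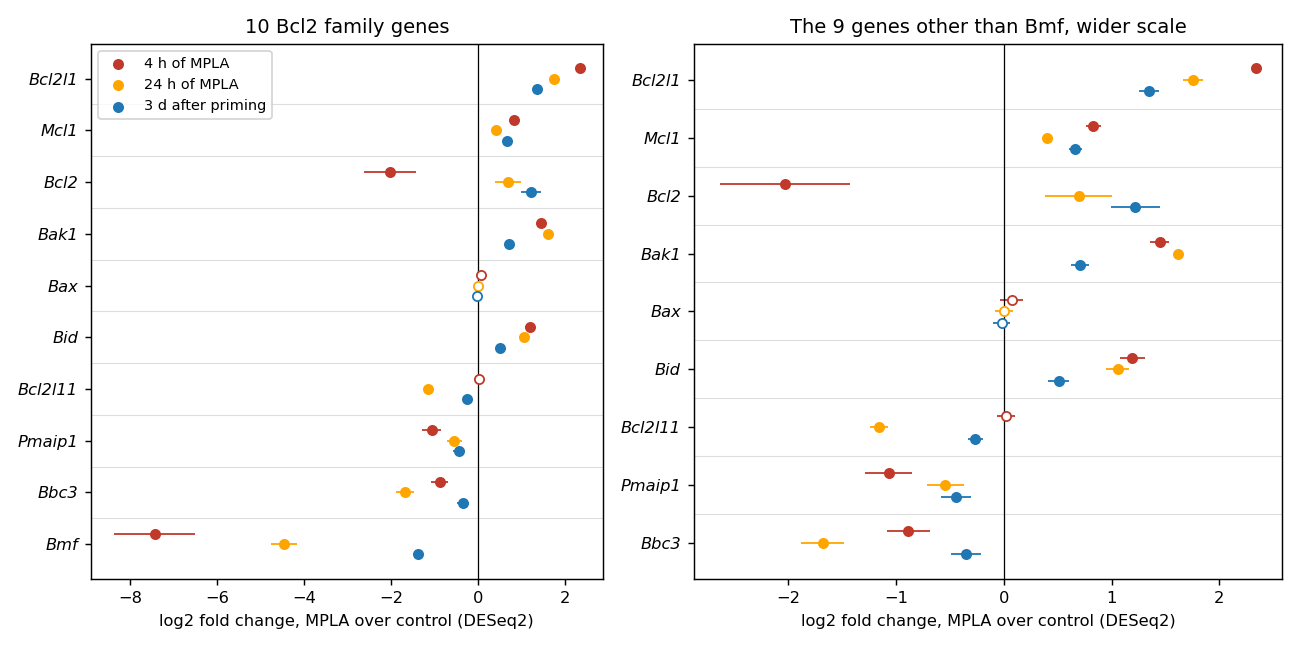
Log2 fold change of each family member, MPLA over control, read from the authors' deposited tables (DESeq2), at 4 h and 24 h of MPLA and 3 d after priming (x axis; genes on the y axis; the right panel leaves out Bmf). Bars are 95% intervals implied by the deposited p-values, drawn only where that p is above 0 (Bcl2l1 at 4 h and Bak1 at 24 h have none), open points were not called, and Bmf stands far below the other members at 4 h (-7.44) and 24 h (-4.46).

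Seen over the 3 comparisons, 4 members were called higher in each (Bcl2l1, Mcl1, Bak1 and Bid) and 3 lower in each (Bmf, Bbc3 and Pmaip1), while 16.6% of the 15038 genes tested in every table were higher in each and 14.3% lower in each. The share that was called in none was 15.3%, and Bax was the 1 member of that kind. Bcl2 was lower at 4 h and higher at 24 h and 3 d, a course of calls that 2.58% of those genes had. Bcl2l11 was called only at 24 h and 3 d with DESeq2, lower both times, and at all 3 times with edgeR. The spread between the highest and the lowest member, which was Bmf each time, narrowed from 9.78 on the log2 scale at 4 h to 6.21 at 24 h and 2.73 at 3 d. No test was made of that narrowing. Over all tested genes the share called and changed at least 2-fold also fell, from 36.6% to 29.2% and 11.6%.

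Among the guardians, Bcl2l1 was the highest member at every time. It encodes Bcl-xL, a guardian that binds both effectors and most BH3-only proteins (ENSMUSG00000007659, chromosome 2, 152780668 to 152831728, minus strand, GRCm38). Bcl2l1 was 5.05-fold higher at 4 h in the authors' deposited table, a log2 change of 2.34 with a DESeq2 adjusted p below the smallest number stored. At 24 h it was 3.37-fold higher (1.75 ± 0.05; DESeq2 adjusted p = 1.84e-282), and at 3 d 2.55-fold higher (1.35 ± 0.05; DESeq2 adjusted p = 1.12e-179), in the authors' deposited tables. The edgeR values were 1.40, 1.34 and 1.22 in that order, so the gene was called higher under both scalings at every time. At 4 h 10.2% of all tested genes had a higher change than Bcl2l1, at 24 h 8.06% and at 3 d 4.18%.

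Mcl1, which encodes a guardian with a short protein half-life (ENSMUSG00000038612, chromosome 3, 95658788 to 95663176, plus strand), changed less, and its direction depended on the scaling during exposure. In the authors' deposited tables the log2 change of Mcl1 was 0.83 ± 0.04 at 4 h, 0.40 ± 0.03 at 24 h and 0.66 ± 0.03 at 3 d with DESeq2 (adjusted p = 1.56e-117, 1.67e-49 and 4.01e-96). With edgeR Mcl1 was called lower at 4 h (-0.10, adjusted p = 0.00311), was not called at 24 h (-0.01, adjusted p = 0.768; baySeq adjusted value 0.125) and was higher at 3 d (0.53, adjusted p = 2.74e-34). Only at 3 d, then, was Mcl1 called higher by both tools.

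Bcl2, the founding member of the family (ENSMUSG00000057329, chromosome 1, 106538178 to 106714274, minus strand), took another course. At 4 h the authors' deposited table put Bcl2 4.08-fold lower (-2.03 ± 0.31; DESeq2 adjusted p = 8.88e-11), which was the lowest value after Bmf. It was 1.62-fold higher at 24 h (0.69 ± 0.16; adjusted p = 2.07e-05) and 2.33-fold higher at 3 d (1.22 ± 0.12; adjusted p = 1.66e-24) with DESeq2 in the authors' deposited tables. The edgeR columns gave the same directions, at -2.96, 0.29 and 1.11, and called each. The errors of Bcl2 were the widest among the guardians at every time where one could be had. Exons of D630008O14Rik on the opposite strand cover 6.09% of the exonic bases of Bcl2. At 3 d the implied 95% intervals of Bcl2 (0.99 to 1.45) and Bcl2l1 (1.26 to 1.44) overlapped, whereas at 4 h the 2 genes differed by 4.37 on the log2 scale.

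The effectors differed from each other. Bak1, which encodes the effector that resides in the mitochondrial membrane (ENSMUSG00000057789, chromosome 17, 27019810 to 27029009, minus strand), was 2.73-fold higher at 4 h (1.45 ± 0.04; DESeq2 adjusted p = 9.82e-229), 3.07-fold higher at 24 h (1.62; adjusted p below the smallest number stored) and 1.63-fold higher at 3 d (0.71 ± 0.04; adjusted p = 2.30e-63) in the authors' deposited tables. It was higher with edgeR as well, by 0.51, 1.20 and 0.58. Exons of Ggnbp1 on the opposite strand cover 25.5% of the exonic bases of Bak1, and the use of strand in counting is not stated, so that share cannot be assigned. Ggnbp1 itself was not called at any time with DESeq2 and stood at -0.42, -0.44 and -0.07 in the authors' deposited tables. With edgeR Ggnbp1 was called lower at 4 h (-1.35) and 24 h (-0.87) and was not called at 3 d (-0.17). Bax, which encodes the effector that moves to mitochondria from the cytosol (ENSMUSG00000003873, chromosome 7, 45461697 to 45466898, minus strand), stood at 0.07 ± 0.05, 0.01 ± 0.04 and -0.02 ± 0.04 at 4 h, 24 h and 3 d (DESeq2 adjusted p = 0.221, 0.924 and 0.713) in the authors' deposited tables. Its implied 95% intervals ran from -0.03 to 0.18, -0.08 to 0.09 and -0.10 to 0.06. Exons of Gm45808 on the same strand cover 12.2% of the exonic bases of Bax, so that share cannot be assigned either. With edgeR, where the median gene stood below 0, Bax was called lower each time, at -0.86, -0.41 and -0.15. The gap between Bak1 and Bax, in which the scaling of a table cancels, was 1.37, 1.61 and 0.73 on the log2 scale with DESeq2 and 1.38, 1.61 and 0.73 with edgeR.

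Bmf had the lowest change of the family in all 3 comparisons. It encodes a BH3-only protein that is held at the actin and myosin cytoskeleton by a dynein light chain until cells detach or lose survival signals (ENSMUSG00000040093, chromosome 2, 118528757 to 118549687, minus strand). At 4 h the authors' deposited table put Bmf 174-fold lower than in the controls (-7.44 ± 0.47; DESeq2 adjusted p = 1.29e-54). At 24 h it was 22.0-fold lower (-4.46 ± 0.15; adjusted p = 8.96e-186) and at 3 d 2.61-fold lower (-1.38 ± 0.06; adjusted p = 1.25e-112) with DESeq2 in the authors' deposited tables. The edgeR columns gave -8.50, -4.88 and -1.52, and the unscaled ratio at 4 h was -8.78. Its error at 4 h was the widest of any member where one could be had. No read counts were at hand, so how few reads of Bmf were left at 4 h could not be told. Of 17523 tested genes 1 had a lower value at 4 h, of 16442 genes 168 at 24 h and of 15111 genes 354 at 3 d. No exonic overlap with another gene and no shared sequence windows were found for Bmf. The log2 change of Bcl2l1 exceeded that of Bmf by 9.78 at 4 h, 6.21 at 24 h and 2.73 at 3 d with DESeq2, and by 9.90, 6.23 and 2.74 with edgeR.

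Other genes had a course close to that of Bmf. The 5 nearest by Euclidean distance over the 3 log2 changes, among 15038 genes tested in every table, were Fam214a (distance 0.62), Zfp395 (0.84), Lpin1 (1.01), Engase (1.24) and Arhgap19 (1.50). Fam214a stood at -6.91, -4.71 and -1.58, and Lpin1, a phosphatidate phosphatase gene, at -6.51, -4.09 and -1.25 at 4 h, 24 h and 3 d in the authors' deposited tables. The distance rests on 3 values per gene that share their controls.

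**Figure D2:**
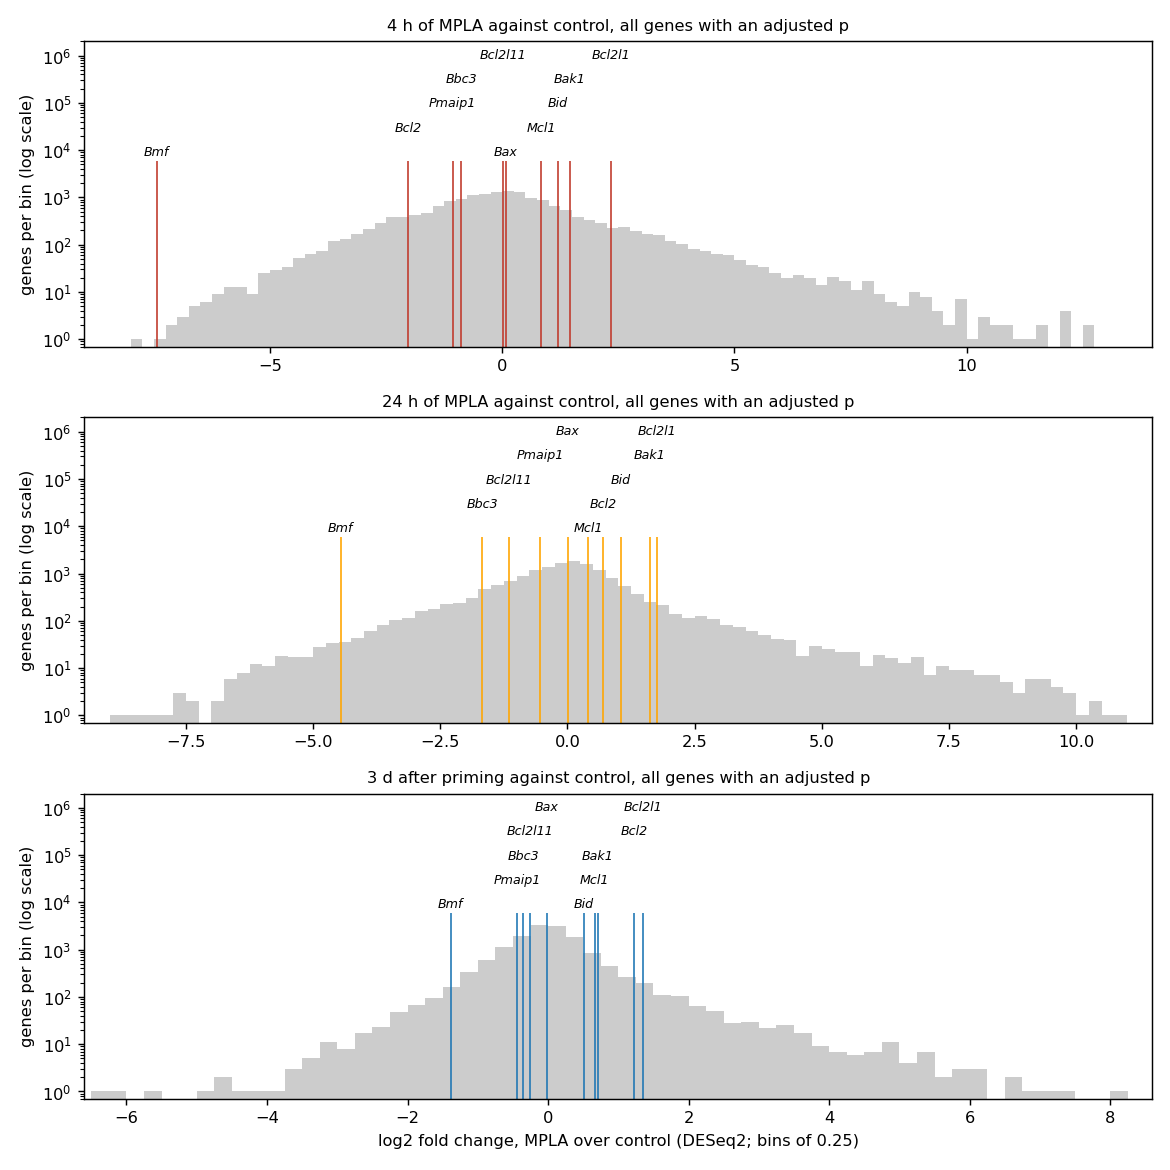
Number of tested genes per bin of log2 fold change (x axis, MPLA over control, DESeq2; y axis on a log scale) in each of the 3 authors' deposited tables, with the 10 members marked by vertical lines. Bmf lies at the lower edge of all genes at 4 h, and at 3 d the members lie between -1.38 and 1.35.

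The BH3-only genes Bbc3 and Pmaip1, known as targets of p53, were lower at each time. Bbc3, which encodes Puma (ENSMUSG00000002083, chromosome 7, 16308393 to 16318205, plus strand), was 1.84-fold lower at 4 h (-0.88 ± 0.10; DESeq2 adjusted p = 2.93e-18), 3.20-fold lower at 24 h (-1.68 ± 0.10; adjusted p = 8.51e-61) and 1.28-fold lower at 3 d (-0.35 ± 0.07; adjusted p = 2.08e-06) in the authors' deposited tables. Pmaip1, which encodes Noxa, a partner of Mcl-1 (ENSMUSG00000024521), was 2.10-fold lower at 4 h (-1.07 ± 0.11; DESeq2 adjusted p = 7.97e-21), 1.46-fold lower at 24 h (-0.54 ± 0.09; adjusted p = 1.32e-09) and 1.36-fold lower at 3 d (-0.44 ± 0.07; adjusted p = 6.95e-10) in the authors' deposited tables. Thus the lowest value of Bbc3 was at 24 h and that of Pmaip1 at 4 h. The implied 95% intervals of the 2 genes overlapped at 4 h and at 3 d. Both were lower with edgeR too, Bbc3 at -1.82, -2.09 and -0.48 and Pmaip1 at -2.00, -0.96 and -0.58. At 3 d baySeq called neither Bbc3 (adjusted value 0.675) nor Pmaip1 (0.449), and their unscaled ratios, which carry the greater depth at that time, were positive (0.75 and 0.64) in the authors' deposited table.

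Bcl2l11 encodes Bim, the BH3-only protein that growth factor loss raises in many blood cells (ENSMUSG00000027381, chromosome 2, 128126038 to 128162547, plus strand). At 4 h it stood at 0.02 ± 0.04 (DESeq2 adjusted p = 0.701), with an implied 95% interval of -0.06 to 0.10, in the authors' deposited table. At 24 h it was 2.23-fold lower (-1.15 ± 0.04; adjusted p = 2.41e-169) and at 3 d 1.20-fold lower (-0.26 ± 0.04; adjusted p = 3.97e-13) with DESeq2 in the authors' deposited tables. With edgeR Bcl2l11 was called lower at all 3 times, at -0.92, -1.57 and -0.39. At 3 d baySeq did not call it (adjusted value 0.747), and its unscaled ratio was 0.82 in the authors' deposited table. Relative to Bcl2l11, whose product is also tethered by a dynein light chain, Bmf was lower by 7.46 at 4 h and by 3.30 at 24 h on the log2 scale.

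Bid was the BH3-only gene that was higher at every time. Its protein carries the signal of death receptors to mitochondria once caspase 8 has cut it (ENSMUSG00000004446, chromosome 6, 120891930 to 120916853, minus strand). In the authors' deposited tables Bid was 2.29-fold higher at 4 h (1.19 ± 0.06; DESeq2 adjusted p = 5.80e-87), 2.08-fold higher at 24 h (1.06 ± 0.05; adjusted p = 6.70e-88) and 1.42-fold higher at 3 d (0.51 ± 0.05; adjusted p = 1.08e-23). With edgeR it was higher by 0.26, 0.64 and 0.38. Exons of Bcl2l13 on the opposite strand cover 17.7% of the exonic bases of Bid. Bcl2l13 was lower at 4 h (-0.43) and was higher at 24 h (0.54) and 3 d (0.19) with DESeq2 in the authors' deposited tables.

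**Figure D3:**
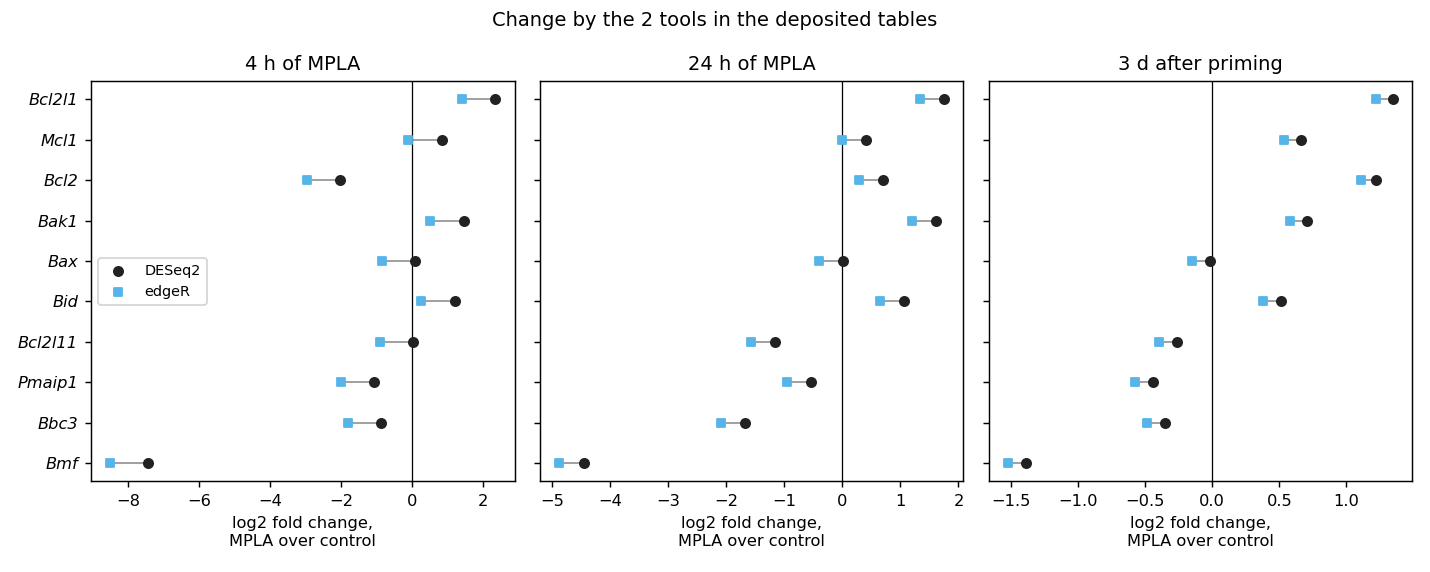
Log2 fold change of each member, MPLA over control, with DESeq2 (circles) and edgeR (squares) in the authors' deposited tables, 1 panel per comparison with its own x scale. The edgeR values lie lower by a nearly constant step, about 0.94 at 4 h, 0.41 at 24 h and 0.13 at 3 d, so that Mcl1, Bax and Bcl2l11 at 4 h and Mcl1 and Bax at 24 h have other signs with the 2 tools.

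Read by role, the guardians had a median log2 change of 0.83 at 4 h, 0.69 at 24 h and 1.22 at 3 d, and the BH3-only genes of -0.88, -1.15 and -0.35. With edgeR the medians were -0.10, 0.29 and 1.11 for the guardians and -1.82, -1.57 and -0.48 for the BH3-only genes. The gap between Mcl1 and Pmaip1, whose products bind each other, was 1.90, 0.95 and 1.11 on the log2 scale. That between Bcl2l1 and Bcl2l11 was 2.32, 2.91 and 1.61. In the order of the members by change, neighbours whose implied intervals overlapped were Pmaip1 and Bbc3, and Bcl2l11 and Bax at 4 h, and Mcl1 with Bcl2 and Bcl2 with Bid at 24 h. At 3 d they were Pmaip1 with Bbc3, Bbc3 with Bcl2l11, Bid with Mcl1, Mcl1 with Bak1, and Bcl2 with Bcl2l1. Where a deposited p of 0 gives no error, as for Bcl2l1 at 4 h and Bak1 at 24 h, the comparison with the neighbour could not be made.

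The rest of the family was read from a list of 17 genes, of which 15 were listed at 4 h, 15 at 24 h and 16 at 3 d, and 14, 13 and 11 were tested. Of these, 6 rose and 5 fell at 4 h, 8 rose and 2 fell at 24 h, and 5 rose and 4 fell at 3 d with DESeq2. The list's medians were 0.65, 0.54 and 0.02. With edgeR the counts were 4 and 7, 6 and 4, and 3 and 5. The shares of all genes stand beside this list and every list below. With DESeq2 31.8% of all tested genes rose and 31.0% fell at 4 h, 32.4% and 32.2% at 24 h, and 29.5% and 25.8% at 3 d. The edgeR shares of all listed genes were 13.5% and 50.1%, 16.2% and 41.8%, and 15.5% and 27.7%. Medians of all tested genes were -0.04, -0.05 and -0.02 with DESeq2. The highest were Bcl2a1a and Bcl2a1d, copies of the A1 guardian gene, a known NF-kappaB target. Bcl2a1a stood at 8.26, 8.54 and 5.31 and Bcl2a1d at 6.70, 5.19 and 2.64 at 4 h, 24 h and 3 d, all called with DESeq2 in the authors' deposited tables. Bcl2a1b was higher at 4 h (3.52) and 24 h (1.73) and was not called at 3 d (0.02; adjusted p = 0.779) in the authors' deposited tables. The copies are nearly identical, since 69.0% of the 50-base windows of Bcl2a1a, 79.2% of those of Bcl2a1b and 79.5% of those of Bcl2a1d occur in other genes, so how reads were divided among them is uncertain. Bcl2l2, which encodes the guardian Bcl-w, was higher at each time with DESeq2 (0.61, 0.51 and 0.33) and stood at -0.32, 0.09 and 0.21 with edgeR. At the lower end were Bcl2l12 (-2.12, -0.92 and -0.72) and the mitophagy receptor gene Bnip3l (-1.18, -0.76 and -0.27), and at 3 d also Bnip3 (-0.35), in the authors' deposited tables. Bad, a BH3-only gene, was lower at 4 h (-0.46) and 3 d (-0.22) and was not called at 24 h (-0.12; adjusted p = 0.183) in the authors' deposited tables.

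Downstream of the mitochondria, 8 of 18 caspase and apoptosome genes rose and 9 fell at 4 h, 9 rose and 8 fell at 24 h, and 5 rose and 7 fell at 3 d, with medians of -0.30, 0.20 and -0.09. With edgeR 5 rose and 11 fell, 8 and 9, and 3 and 12. Cycs, cytochrome c, was among the highest at 3.56, 3.15 and 1.38 in the authors' deposited tables, and 26.1% of its windows occur in other genes. Apaf1, the scaffold that cytochrome c binds, was higher by 1.67, 0.57 and 0.28. Casp9, the caspase it recruits, was lower at 4 h (-1.43) and was not called at 24 h (0.01; adjusted p = 0.939) or 3 d (-0.09; adjusted p = 0.0660) with DESeq2 in the authors' deposited tables. At the lower end were the nuclease genes Endog (-1.85 at 4 h) and Dffb (-1.49, -1.08 and -0.79) and the executioner caspase gene Casp6 (-1.38 at 24 h and -0.68 at 3 d). Vdac3, a channel of the outer mitochondrial membrane, was the highest after Cycs at 3 d (0.37), in the authors' deposited tables. Casp8, the caspase that cuts Bid, was higher at 4 h (1.94) and 24 h (1.10) and was not called at 3 d (-0.05; adjusted p = 0.284) in the authors' deposited tables.

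Of 15 genes that brake caspases or death receptors, 11 rose and 3 fell at 4 h, 12 rose and 3 fell at 24 h, and 9 rose and 4 fell at 3 d, with medians of 1.17, 0.75 and 0.25. The edgeR counts were 9 and 6, 9 and 6, and 7 and 5. Of all tested genes, 31.8%, 32.4% and 29.5% rose and 31.0%, 32.2% and 25.8% fell with DESeq2 at 4 h, 24 h and 3 d. Traf1, an adaptor of TNF receptors, was the highest at 7.70, 6.93 and 4.81, and Cflar, which encodes the caspase 8 inhibitor c-FLIP, stood at 4.81, 3.31 and 1.69 in the authors' deposited tables. Tnfaip3, the ubiquitin-editing enzyme A20, was at 5.75 at 4 h and 1.79 at 3 d. Birc5, survivin, which is also a mitotic gene, was lower at each time (-1.42, -4.48 and -1.24), as was Tnfaip8l2 (-2.39, -1.15 and -0.59) in the authors' deposited tables. Bag4 (-1.69) was the other gene of the list among the lowest at 4 h.

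Inside the death receptor pathway, 5 of 10 genes rose and 3 fell at 4 h, 5 and 2 at 24 h, and 3 and 2 at 3 d (3 and 6, 3 and 5, and 2 and 6 with edgeR), with medians of 0.19, 0.20 and -0.05. Daxx (4.58, 2.66 and 0.80) and Mlkl, the executor of necroptosis (4.23, 3.78 and 0.90), were highest at each time, and Dapk1 (-1.47, -0.87 and -0.27) was lowest in the authors' deposited tables. With DESeq2 Fadd, the adaptor that recruits caspase 8, was lower at 4 h (-0.58) and higher at 24 h (0.40). Ripk1 was higher at 4 h (0.40) and lower at 24 h (-0.10) with DESeq2 in the authors' deposited tables. With edgeR Ripk1 was called lower at both times (-0.54 and -0.52). Fadd with edgeR was lower at 4 h (-1.51) and was not called at 24 h (-0.01; adjusted p = 0.915). Itch was called only at 3 d with DESeq2 (-0.09).

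Of 20 genes for transcription factors known to act on BH3-only or guardian genes, all 20 were listed and 18 tested at each time. Of these 8 rose and 6 fell at 4 h, 11 and 5 at 24 h, and 10 and 6 at 3 d (8 and 10, 7 and 11, and 9 and 8 with edgeR), with medians of -0.04, 0.22 and 0.26. Foxo3, a factor known to drive Bcl2l11 and Bbc3 when growth factor signals cease, was lower by each tool at each time, with DESeq2 log2 changes of -4.35, -1.57 and -0.79 in the authors' deposited tables. Foxo1 (-1.54, -0.94 and -0.38) and Foxo4 (-1.57, -1.67 and -0.23) were lower as well. Rel (3.92, 0.85 and -0.11) and Stat5a (3.89, 0.27 and -0.10, the last not called) were highest at 4 h in the authors' deposited tables. With edgeR Stat5a was called lower at 24 h (-0.14) and 3 d (-0.22). Ddit3, the stress factor CHOP, was lower at 4 h (-0.97) and among the highest at 24 h (2.60) and 3 d (1.68), as was Runx3 at 24 h (2.39) and 3 d (1.80), which was not called at 4 h (-0.57). E2f1 was lower at 4 h (-1.83) and higher at 24 h (0.19) and 3 d (0.29) with DESeq2. With edgeR E2f1 was called lower at 4 h (-2.77) and 24 h (-0.22) and higher at 3 d (0.16). Egr1 was higher at 24 h (1.85) and lower at 3 d (-0.62). Trp53 was not called at 4 h (-0.03; DESeq2 adjusted p = 0.726) or 24 h (0.08; adjusted p = 0.202) and was higher at 3 d (0.34; adjusted p = 2.35e-12) in the authors' deposited tables.

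Targets of p53 other than Bbc3 and Pmaip1 were mixed. Of 16 on the list, 15 were tested at each time. Among those tested, 6 rose and 8 fell at 4 h, 5 and 10 at 24 h, and 8 and 2 at 3 d (4 and 10, 3 and 10, and 8 and 4 with edgeR), with medians of -0.19, -0.38 and 0.23. Cdkn1a, the cell cycle inhibitor p21, was highest at 4 h (3.85), Plk2 was among the highest at each time (2.36, 1.61 and 1.24), and Mdm2, the ligase of p53, was at 1.52 at 24 h in the authors' deposited tables. Tnfrsf10b, a death receptor gene, was higher by 1.28 at 3 d. Sesn1 (-4.90, -4.21 and -1.41) and Trp53inp1 (-3.08, -3.07 and -0.44) were lowest at each time in the authors' deposited tables.

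Of 18 genes for the turnover and tethering of family proteins, 17 were tested at each time. Among those tested, 9 rose and 4 fell at 4 h, 11 and 2 at 24 h, and 8 and 4 at 3 d, while edgeR gave 3 and 13, 5 and 10, and 4 and 7. March5, a mitochondrial ubiquitin ligase gene, was among the highest at 3.91, 1.60 and 0.54, and Ywhaz, a 14-3-3 protein gene, was at 1.95 at 4 h in the authors' deposited tables. Rps6ka1 was lowest at 4 h (-1.38) and higher at 3 d (0.38). Mapk3 (-0.67) and Ywhaq (-0.14), which was higher at 4 h with DESeq2 (0.41), were lowest at 24 h. With edgeR Ywhaq was called lower at 4 h (-0.52) and 24 h (-0.55). Of the dynein light chains, Dynll2, the tether of Bmf, was lower at 4 h (-0.69) and was not called at 24 h (-0.04; adjusted p = 0.387) or 3 d (0.01; adjusted p = 0.795) in the authors' deposited tables. Dynll1, the tether of Bim, was not called at 4 h (-0.06; adjusted p = 0.420), was higher at 24 h (1.39) and lower at 3 d (-0.23), where Mapk8 (-0.19) was the other lowest gene, in the authors' deposited tables.

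**Figure D4:**
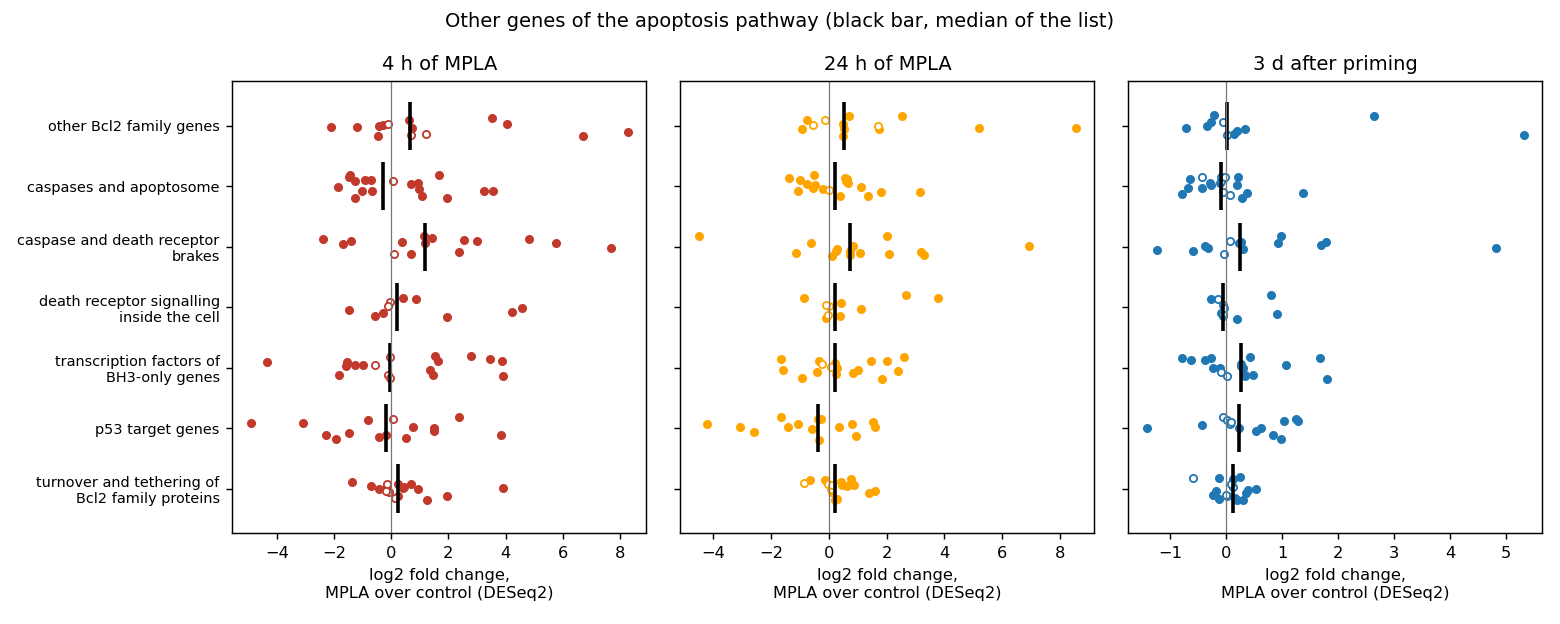
Log2 fold change, MPLA over control (x axis, DESeq2, its own scale in each panel), of the tested genes of 7 lists around the Bcl2 family (rows) in the authors' deposited tables. Filled points were called and open points were not, black bars are the medians of the lists, and Bcl2a1a and Bcl2a1d are the points farthest to the right in the top row at each time.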

How the data were processed

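RNA of 12 libraries of mouse bone marrow-derived macrophages was sequenced by the submitters from polyadenylated RNA with a stranded kit, per the labels' protocols. Tools listed in the submitters' processing notes are TopHat2, HTSeq, bcl2fastq, DESeq, DESeq2 and edgeR, used by the authors, with the build mm10; versions, annotation and strand setting are not given in the sources used here. The authors deposited 3 tables, each of 1 MPLA group against the same 3 controls, with log2 fold changes, p-values and adjusted p-values of DESeq2 and edgeR, an unscaled log2 ratio, a baySeq value of 1 minus the likelihood with its adjusted form, and ranks (both a score here), per the file headers. Depth per library is unknown, and no counts were used here.

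The deposited log2 values are control over MPLA, and the sign was turned here, as read from the order of the groups and from 8 induced genes such as Il6, which stood at -12.55 at 4 h as deposited. Adjusted p-values given as NA were kept as not tested. Standard errors were computed here as the log2 change divided by the normal deviate of the authors' DESeq2 p-value, with 95% intervals, in Python 3.11.15 with scipy 1.17.1. The step was tested on simulated data whose p-values were made with the same formula, which checks the arithmetic only. That test cannot show whether the deposited p-values came from a Wald test. Genes were placed on GRCm38 with GENCODE release M21, and shared 50-base windows were counted over its transcripts. All members were named; from each list the 2 highest and the 2 lowest called genes with reads in both groups were named in each comparison, and other list genes named were chosen after their values were seen. Some list genes are not reported here by name. The members and the lists were chosen with earlier results of these data known. The alternatives were the authors' edgeR columns, Benjamini-Hochberg adjustment over every p-value in a table, baySeq, an adjusted p under 0.01, a 2-fold minimum, calls shared by 3 tools and the unscaled ratio.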

Additional observations from a re-analysis of the deposited data

How the results depend on the processing

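No paired analysis was possible because the tables hold 1 value per comparison and none per library, and for the same reason no replicate could be left out. With the edgeR columns 7 members were lower at 4 h instead of 4, since Mcl1 (-0.10), Bax (-0.86) and Bcl2l11 (-0.92) turned negative, and at 24 h Mcl1 (-0.0092) and Bax (-0.41) did; 24 of the 30 member values kept direction and call, and Bax at 3 d became a call. The sign of the unscaled ratio also gave 7 lower members at 4 h, with Mcl1 at -0.32, and Mcl1 at -0.10 at 24 h. At 3 d, where the unscaled ratio carries the 2.32 times greater depth, it gave 9 higher and 1 lower, with Bcl2l11 at 0.82, Bbc3 at 0.75 and Pmaip1 at 0.64. A 2-fold minimum left 3 higher members at 24 h and, at 3 d, 3 calls, 2 higher (Bcl2 and Bcl2l1) and 1 lower (Bmf). With baySeq, and with calls shared by the 3 tools, 1 member (Bmf) was lower at 3 d instead of 4, since Bcl2l11, Bbc3 and Pmaip1 lost the call. Of the genes on the 7 other lists, edgeR called 63 of 110 listed lower at 4 h, 55 of 110 at 24 h and 46 of 112 at 3 d. DESeq2 called 38 of 106 tested lower at 4 h, 32 of 105 at 24 h and 29 of 103 at 3 d. Over all genes the shares called lower were 50.1%, 41.8% and 27.7% with edgeR and 31.0%, 32.2% and 25.8% with DESeq2. Adjustment over all p-values and an adjusted p under 0.01 left the 9 counts of members within 1.5 times, and subtracting the median of all tested genes changed no direction of the 30 member values.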
